A study of Rattus norvegicus with 6 samples.

Results

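Transcripts of 4 matrix metalloproteinases (Mmp2, Mmp3, Mmp9 and Mmp13) and of the tissue inhibitor Timp1 were followed in rat bone marrow mesenchymal stem cells, the stromal cells of marrow that can form bone, cartilage and fat. The cells are primary and labelled WT. They were cultured for 6 hours on titanium dioxide nanotubes of 100 nm (NT100, 3 libraries) or on a smooth surface (ST, 3 libraries). The labels give neither the age, sex and strain of the animals nor whether replicate libraries stem from separate cultures or animals. The p-values therefore measure library-to-library spread alone, and this spread may be technical. The 5 genes were chosen as matrix remodelling enzymes of marrow stroma and their inhibitor, by their rat Ensembl identifiers: ENSRNOG00000016695 (Mmp2), ENSRNOG00000032626 (Mmp3), ENSRNOG00000017539 (Mmp9), ENSRNOG00000008478 (Mmp13) and ENSRNOG00000010208 (Timp1). All 5 were among the 19458 genes listed and among the 11865 with a mean of at least 1 FPKM that were tested. FPKM is a count of fragments divided by the length of the gene model and by the counted fragments of the library, so that levels of different genes can be set side by side.

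Matrix metalloproteinases are zinc enzymes that cleave proteins of the extracellular matrix. Most, including these, are secreted as inactive proenzymes and are activated by removal of the propeptide, and the activated enzymes are held in check by the tissue inhibitors of metalloproteinases, which bind the active site. Mmp2 and Mmp9 are the gelatinases, which cleave denatured collagen and collagen IV of basement membranes. Mmp13 is the main interstitial collagenase of rodent bone and cartilage, and Mmp3 (stromelysin 1) cleaves proteoglycans, fibronectin and other substrates and can activate other proenzymes. Transcript levels say nothing of how much enzyme is active.

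The libraries held 16299799 to 17624390 counted reads. They did not stand apart by surface. Nanotube library 3 lay closest to smooth library 2, at a mean squared difference of 6.74 times the counting variance over all genes with at least 20 reads on average, against 19.5 to 146 for every other pair of libraries, 76.0, 133 and 78.8 within the nanotube group among them. Results that rest on nanotube library 3 are therefore also given without it. It was picked by its expression values, and the closeness holds as much for smooth library 2. Leaving out a nanotube library that resembles a smooth one by itself widens differences between the surfaces. Genes at an unadjusted limma p under 0.05 went from 6.10% to 18.6% of those tested. Results without it are thus a description. The remaining library of each surface carries no number in its title, and 3 is used here as its name from the deposited table. No stromal, leukocyte or other marker list was analysed here, because the table pairs no identifier with a symbol. In these bulk samples, fewer cells of a type and less RNA per cell cannot be told apart.

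Timp1 and Mmp2 were far more abundant than the other 3 enzymes in every library. The level of Timp1 ranked between 8 and 19 among all genes of a library, and that of Mmp2 between 33 and 139. The order Timp1 above Mmp2 above the rest held in 6 of 6 libraries, with no overlap of their ranges (1936 to 3571 FPKM for Timp1 and 517 to 1222 FPKM for Mmp2). Mmp13 came next, with 37.6 to 126 FPKM, and was above Mmp9 in all libraries except nanotube library 2, although their ranges overlapped. Mmp9 (25.05 to 52.5 FPKM) and Mmp3 (9.82 to 59.4 FPKM) overlapped over most of their range. Mmp9 was the higher of the pair in nanotube libraries 1 and 2 and in smooth library 1, and Mmp3 in nanotube library 3 and smooth libraries 2 and 3. Mmp2 made up 76.7% to 93.2% of the summed FPKM of the 4 enzymes on nanotubes and 70.1% to 91.0% on smooth.

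**Figure D1:**
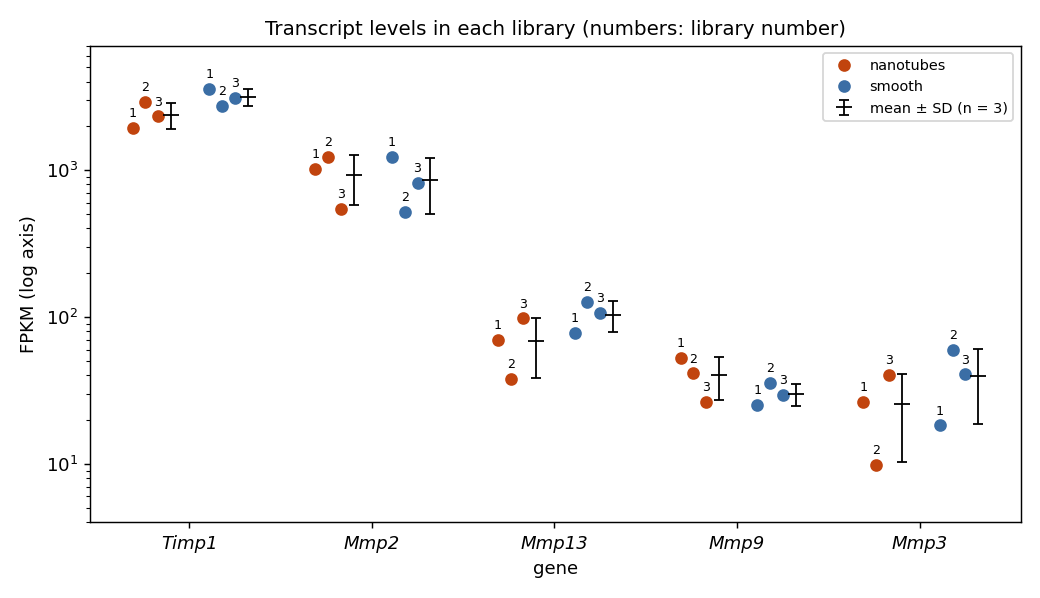
FPKM (log axis) of the 5 genes in each of the 6 libraries, nanotubes left of smooth, with the mean and SD of each surface beside its points and the library number above each point. Timp1 and Mmp2 stood above the other 3 genes in every library, and for each gene the libraries of the surfaces overlapped.

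Timp1, a secreted inhibitor of these enzymes, had the smallest spread of the 5 genes and a lower mean on nanotubes that did not pass the test. Its level was 1936, 2911 and 2316 FPKM in nanotube libraries 1, 2 and 3, against 3571, 2746 and 3109.8 FPKM in smooth libraries 1, 2 and 3. Nanotube libraries 1 and 3 lay below all smooth libraries, and nanotube library 2 lay above smooth library 2, so the groups overlapped. The means were 2388 ± 491 FPKM on nanotubes and 3142 ± 413 FPKM on smooth (SD, n = 3 libraries each). The log2 fold change, on log2(FPKM + 1) as throughout, was -0.41 ± 0.20 (SE, 95% interval -0.89 to 0.07, limma adjusted p 0.753). This scale slightly understates changes of the lowest gene, Mmp3. Each value rested on 25254 to 43071 reads, so that counting error was at most 0.63% of a value.

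Mmp2 was the most abundant enzyme transcript and varied by 2.26-fold among nanotube libraries and by 2.36-fold among smooth libraries. It had 1015, 1222 and 541 FPKM in nanotube libraries 1, 2 and 3, against 1221, 517 and 819.9 FPKM in smooth libraries 1, 2 and 3. The highest values of the surfaces were nearly equal, and so were the lowest. The means were 926 ± 349 FPKM on nanotubes and 853 ± 353 FPKM on smooth (SD, n = 3 libraries each). The log2 fold change was 0.12 ± 0.41 (SE, 95% interval -0.84 to 1.09, limma adjusted p 0.960). Its sign turned when 1 library was left out, to -0.12 without nanotube library 2 and to -0.19 without smooth library 2, and it was 0.47 without nanotube library 3. With 26639 to 64869 reads per value, counting error was no more than 0.61%.

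Mmp13 and Mmp3, the collagenase and the stromelysin, had lower means on nanotubes, and neither passed the test. Mmp13 had 69.7, 37.6 and 97.7 FPKM in nanotube libraries 1, 2 and 3, against 77.8, 126 and 106 FPKM in smooth libraries 1, 2 and 3. Nanotube libraries 1 and 2 were below all smooth libraries, and nanotube library 3 was above smooth library 1. The means were 68.4 ± 30.1 FPKM on nanotubes and 103 ± 24.2 FPKM on smooth (SD, n = 3 libraries each), and the log2 fold change was -0.66 ± 0.36 (SE, 95% interval -1.51 to 0.19, limma adjusted p 0.759). Mmp3 had 26.5, 9.82 and 40.4 FPKM in nanotube libraries 1, 2 and 3, against 18.2, 59.4 and 40.6 FPKM in smooth libraries 1, 2 and 3. Only nanotube library 2 lay below all smooth libraries. The means were 25.6 ± 15.3 FPKM on nanotubes and 39.4 ± 20.6 FPKM on smooth (SD, n = 3 libraries each), with a log2 fold change of -0.66 ± 0.59 (SE, 95% interval -2.07 to 0.76, limma adjusted p 0.848). Mmp3 rested on the fewest reads, 290 in nanotube library 2 and up to 1702 in smooth library 2, which put its counting error at 2.42% to 5.87% of a value.

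Mmp3 and Mmp13 also took nearly the same course over the 6 libraries. Both were lowest in nanotube library 2. Both then had nanotube library 1 and smooth library 1 next, in either order, and after them nanotube library 3, smooth library 3 and, highest, smooth library 2. The highest library was 6.05 times the lowest for Mmp3 and 3.35 times for Mmp13. The level of Mmp13 was 2.42 to 3.83 times that of Mmp3 in nanotube libraries and 2.12 to 4.26 times in smooth libraries. Pearson's r of log2(FPKM + 1) between them was 0.953 over the 6 libraries, which ranked Mmp13 78 among the 11864 other tested genes by likeness to Mmp3. This is a description of 6 libraries that are not spread evenly, and has no test. In RefSeq both genes lie on rat chromosome 8, in the cluster of metalloproteinase genes.

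Promoter sequences were available for Mmp3 and Mmp13, which moved together over the libraries, and for Timp1, which did not follow them. The reference held none for Mmp2 and Mmp9, so Timp1 is the only gene outside the pair. Whether a shared promoter site had a part in the course of Mmp3 and Mmp13 was not tested. Promoters of stromelysin and collagenase genes are known for a site of AP-1, the dimer of Fos and Jun proteins that mediates their induction by growth factors and cytokines. The sequences are from RefSeq (build GRCr8), run from 250 bases before to 50 bases after the annotated start, and read 5′ to 3′ on the strand of the gene. Capitals mark matches to the AP-1 motif TGANTCA, which reads the same on both strands.
Mmp3, chr8:12925031-12925330, plus strand: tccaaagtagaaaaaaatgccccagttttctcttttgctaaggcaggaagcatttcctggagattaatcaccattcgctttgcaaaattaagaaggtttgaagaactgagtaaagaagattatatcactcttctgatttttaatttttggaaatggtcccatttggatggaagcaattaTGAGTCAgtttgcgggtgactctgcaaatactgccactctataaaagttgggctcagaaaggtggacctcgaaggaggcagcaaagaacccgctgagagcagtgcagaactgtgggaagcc
Mmp13, chr8:12782579-12782878, plus strand: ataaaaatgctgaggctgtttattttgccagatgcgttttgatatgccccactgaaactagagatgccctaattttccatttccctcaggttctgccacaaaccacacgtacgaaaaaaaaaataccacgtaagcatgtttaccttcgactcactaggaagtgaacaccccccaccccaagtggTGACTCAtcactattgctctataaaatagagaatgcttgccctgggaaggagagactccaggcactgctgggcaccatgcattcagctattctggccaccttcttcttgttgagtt
Timp1, chrX:3771073-3771372, minus strand: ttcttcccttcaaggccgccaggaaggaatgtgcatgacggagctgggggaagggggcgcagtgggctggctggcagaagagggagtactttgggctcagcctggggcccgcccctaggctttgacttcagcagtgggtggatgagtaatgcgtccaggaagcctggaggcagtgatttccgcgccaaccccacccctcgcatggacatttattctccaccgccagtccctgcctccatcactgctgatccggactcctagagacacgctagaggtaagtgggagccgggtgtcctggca

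The Mmp3 window held 1 match to the AP-1 motif in the form TGAGTCA, whose first base lay 71 bases before the annotated start, and the Mmp13 window held 1 in the form TGACTCA, 66 bases before it. Such a match was found in 7.33% of the 33469 promoter windows of the same length. Both windows also held TATAAA on the strand of the gene, 32 bases before the start of Mmp3 and 47 bases before that of Mmp13. On either strand that motif (reverse complement TTTATA) was found in 14.2% of windows. The Timp1 window held no exact match to either motif. It did hold tgagtaa, which differs from the AP-1 motif in 1 base, as did the Mmp3 window. Such near matches were not searched for, so the exact search does not show that Timp1 lacks an AP-1 site. All 3 windows held AGGAAG, the core of a site for ETS factors (reverse complement CTTCCT), 1 time each for Mmp3 and Mmp13 and 2 times for Timp1, as did 34.5% of windows. None of the matches overlapped another. A match describes the letters of a window and not the binding of a factor, which was not measured in these libraries.

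Mmp9, the gelatinase best known from leukocytes and osteoclasts, was the only one of these genes besides Mmp2 with a higher mean on nanotubes, and it did not pass the test either. It had 52.5, 41.3 and 26.5 FPKM in nanotube libraries 1, 2 and 3, against 25.05, 35.4 and 29.3 FPKM in smooth libraries 1, 2 and 3. Nanotube libraries 1 and 2 lay above all smooth libraries, and nanotube library 3 lay below all of them except smooth library 1. The means were 40.1 ± 13.0 FPKM on nanotubes and 29.9 ± 5.21 FPKM on smooth (SD, n = 3 libraries each). The log2 fold change was 0.37 ± 0.26 (SE, 95% interval -0.24 to 0.99, limma adjusted p 0.796). Counting error was 1.85% to 2.79% of a value, from 1286 to 2914 reads.

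Of the 5 genes, 0 passed an adjusted p of 0.05 between the surfaces, and of all 11865 tested genes 0 passed as well (limma, 0% called). The voom fit on recovered reads also called 0 genes. At an unadjusted p under 0.05 there were 0 of the 5, against 6.10% of all tested genes, and 0 of the 5 had surfaces whose libraries did not overlap, against 12.2% of all. The mean was lower on nanotubes in 3 of the 5 genes, against 59.5% of all genes. Their median log2 fold change was -0.41, against -0.04 over all tested genes. The differences of Mmp13 and Mmp3 were large beside those of other genes, in size greater than 96.9% and 96.7% of them, but so was the spread of these genes. For each of the 5 genes the 95% interval reached both sides of no change. In this fit it left out a 2-fold or larger fall for Timp1, Mmp2 and Mmp9. It also left out a 2-fold or larger rise for Timp1, Mmp3, Mmp13 and, by a small margin at 0.99, Mmp9. These bounds did not hold in every alternative fit. With genes under 1 FPKM kept, the interval of Timp1 reached down to -1.23 and that of Mmp9 up to 1.02. With median-of-ratios scaling that of Mmp9 reached 1.11. The bounds failed more widely with 1 library left out. Without nanotube library 2 or 3 or smooth library 2 or 3, the interval of Timp1 passed a 2-fold fall, at lowest -1.07. Leaving out the same libraries, that of Mmp9 passed a 2-fold rise, at highest 1.21. Without nanotube library 1 or 2 or smooth library 2 or 3, that of Mmp2 passed a 2-fold fall, at lowest -1.21. Without nanotube library 2 or smooth library 2 or 3, that of Mmp3 passed a 2-fold rise, at highest 1.26.

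Nanotube library 3 bore on the differences of Mmp9, Mmp13, Mmp3 and Mmp2. Without it, the log2 fold change of Mmp9 was 0.63 ± 0.18 (SE, limma adjusted p 0.174), and that of Mmp13 was -0.97 ± 0.32 (SE, limma adjusted p 0.210). That of Mmp3 was -1.08 ± 0.60 (SE, limma adjusted p 0.397), and that of Timp1 was -0.40 ± 0.24 (SE, limma adjusted p 0.434). An adjusted p of 0.05 was passed by 0 of the 5 genes and by 0.00842% of all tested genes in that fit, which is 1 gene. Mmp9 and Mmp13 then reached unadjusted limma p values of 0.0154 and 0.0256, which are descriptive, since the library was picked by its expression values. These were 2 of the 5, where 18.6% of all tested genes were under 0.05 in that fit. The same pair had surfaces whose libraries no longer overlapped, as had 37.2% of all tested genes. Without either library numbered 3, Mmp9 and Mmp13 again had libraries that did not overlap, with 40.4% of all genes. Mmp9 alone of the 5 was under an unadjusted limma p of 0.05, at 0.0453, with 8.81% of all genes. Their log2 fold changes were 0.63 and -0.94. Other libraries moved the differences in either direction. Without smooth library 1 the log2 fold change was -1.12 for Mmp3, -0.85 for Mmp13 and 0.43 for Mmp2, larger in size than with all libraries. For Mmp9 it was smaller, 0.26. Without nanotube library 2 the log2 fold change was -0.11 for Mmp3 and -0.29 for Mmp13. That of Timp1 was then -0.56 (95% interval -1.06 to -0.06, limma adjusted p 0.976). Its unadjusted limma p was 0.034, in a fit where 379 of 11881 tested genes were under 0.05, and is likewise descriptive. Without smooth library 2 the log2 fold change was -0.29 for Mmp3, -0.51 for Mmp13 and, larger than with all libraries, 0.50 for Mmp9. Without nanotube library 1 it was 0.16 for Mmp9.

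**Figure D2:**
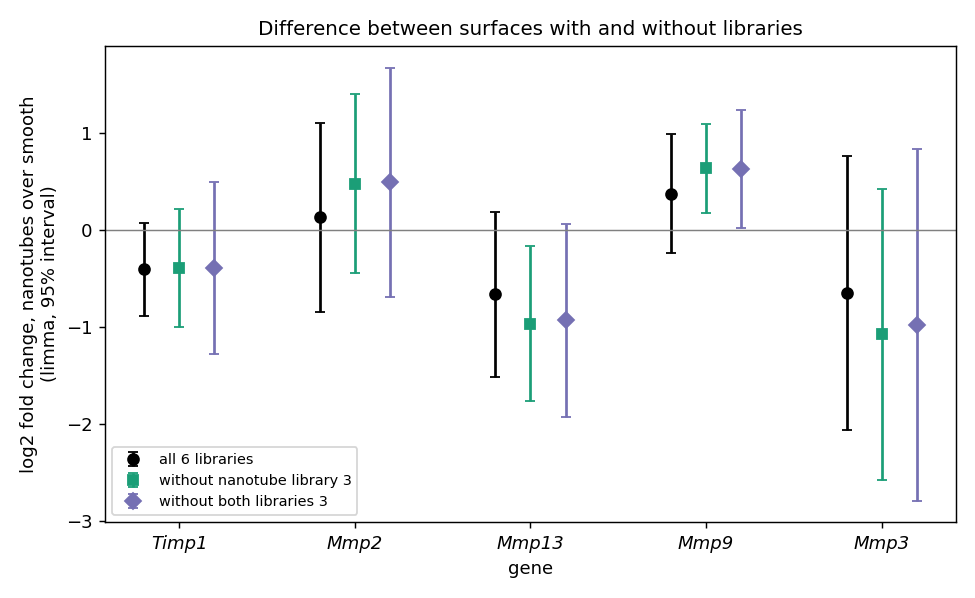
Log2 fold change of nanotubes over smooth on log2(FPKM + 1) from limma, with 95% intervals, for all 6 libraries, without nanotube library 3 and without both libraries numbered 3. With all libraries each interval spans 0. The intervals of Mmp9 and Mmp13 lie to 1 side of 0 when only nanotube library 3, picked by its expression values, is left out. Without both libraries numbered 3 that of Mmp9 alone does so, and that of Mmp13 spans 0.

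The spread between libraries was wide for 4 of the 5 genes. The SD of log2(FPKM + 1) over the 6 libraries was 0.90 for Mmp3, 0.61 for Mmp13, 0.56 for Mmp2, 0.40 for Mmp9 and 0.31 for Timp1, against a median of 0.21 over all tested genes. That placed Mmp3, Mmp13 and Mmp2 at percentiles 98.1, 93.8 and 92.4 of all tested genes and Timp1 at 74.6. Counting error would give an SD of 0.06 for Mmp3, 0.03 for Mmp9 and Mmp13 and 0.01 for Mmp2 and Timp1.

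Mmp2 ran against Mmp3 and Mmp13 across the libraries. Nanotube libraries 1 and 2 and smooth library 1 had the highest Mmp2 and the lowest Mmp3 and Mmp13, and nanotube library 3 and smooth libraries 2 and 3 had the reverse. In nanotube library 2 the level of Mmp2 was 124 times that of Mmp3, and in smooth library 2 it was 8.70 times. Over the 6 libraries Pearson's r of log2(FPKM + 1) between Mmp2 and Mmp3 was -0.877, which placed Mmp2 at rank 11597 of 11864 genes by likeness to Mmp3, as a description without a test. The share of reads taken by the 10 most abundant genes of a library moved in the same way. It was 13.6%, 10.1% and 8.35% in nanotube libraries 1, 2 and 3, against 11.4%, 7.97% and 9.34% in smooth libraries 1, 2 and 3, and its part in the levels of these genes was not tested. Nanotube library 3 and smooth library 2, which were the nearest pair over all genes, differed little for Mmp2 (1.05 times) but had Mmp3 and Mmp13 at 0.681 and 0.775 times on the nanotube side. Mmp9 and Timp1 followed neither course. Mmp9 was highest in nanotube library 1, where Timp1 was lowest, and Mmp9 was lowest in smooth library 1, where Timp1 was highest. Both were next to lowest in nanotube library 3, however. Pearson's r between them was -0.637, with Mmp9 at rank 10766 of 11864 genes by likeness to Timp1, again without a test.

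**Figure D3:**
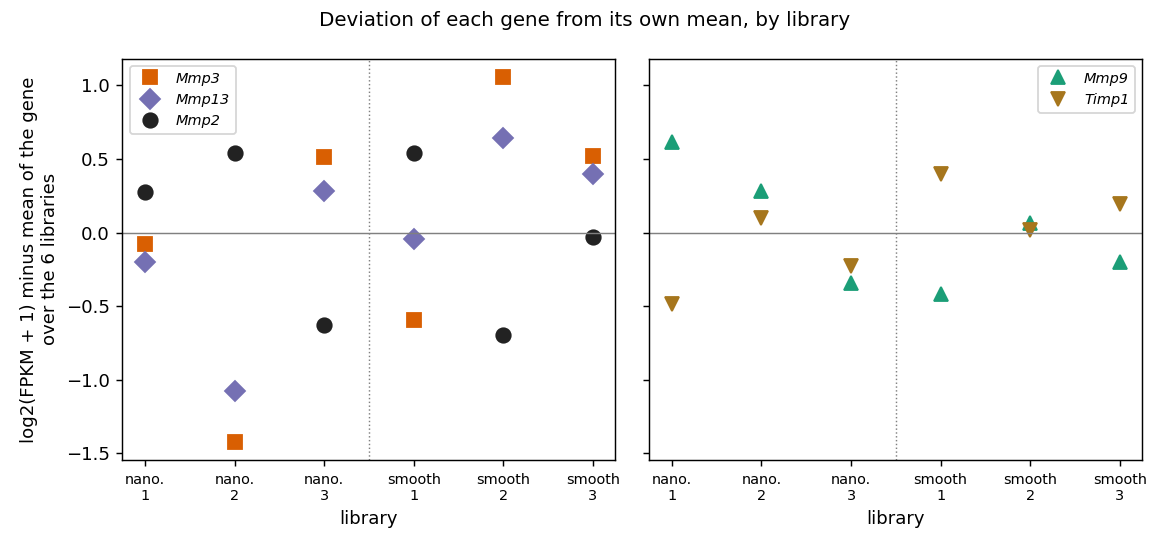
Deviation of each gene from its own mean of log2(FPKM + 1) over the 6 libraries, with Mmp3, Mmp13 and Mmp2 on the left and Mmp9 and Timp1 on the right. Mmp3 and Mmp13 lie on the same side of their means in each library and Mmp2 on the other, and in smooth library 1 Timp1 is at its highest and Mmp9 at its lowest.

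Each enzyme was set beside Timp1 within libraries as the difference of log2(FPKM + 1) from Timp1. A common scaling of a library cancels in it at high values, but not fully at low ones, because of the 1 added to FPKM. Other inhibitors could not be picked out without symbols, so this is not the whole balance of enzymes and inhibitors. Timp1 exceeded every enzyme in every library, by 1.91 to 4.28 times for Mmp2 on nanotubes and by 2.92 to 5.31 times on smooth. Relative to Timp1, Mmp2 stood at -1.43 ± 0.60 on nanotubes and -1.96 ± 0.43 on smooth, and Mmp9 at -5.89 ± 0.64 on nanotubes and -6.67 ± 0.43 on smooth (log2 units, SD, n = 3 libraries each). Mmp13 stood at -5.19 ± 0.91 on nanotubes and -4.93 ± 0.54 on smooth, and Mmp3 at -6.67 ± 1.22 on nanotubes and -6.42 ± 1.03 on smooth. The means of the surfaces differed by 0.78 for Mmp9, 0.53 for Mmp2, -0.26 for Mmp13 and -0.25 for Mmp3, nanotubes minus smooth. Each of these takes in the log2 fold change of Timp1, -0.41, which did not pass the test, so they are not separate observations. The log2 fold change of the enzyme itself was 0.37 for Mmp9, 0.12 for Mmp2 and -0.66 for both Mmp13 and Mmp3. Of the 4 enzymes, 0 had surfaces that did not overlap, against 21.2% of all other tested genes. The signs of Mmp13 and Mmp3 turned without nanotube library 2, to 0.27 and 0.45, and that of Mmp3 also turned without smooth library 2, to 0.21. For Mmp2 and Mmp9 the overlap rested on nanotube library 3. Without it both had all nanotube values above all smooth ones, which made 2 of 4 enzymes, against 24.8% of all other tested genes, and the differences were 0.87 for Mmp2 and 1.03 for Mmp9. Without nanotube library 1 the differences were 0.29 for Mmp2 and 0.42 for Mmp9, and for Mmp2 it was 0.31 without smooth library 2. The values of Mmp9 were -5.18, -6.11 and -6.39 in nanotube libraries 1, 2 and 3, against -7.10, -6.24 and -6.68 in smooth libraries 1, 2 and 3, so that with all libraries smooth library 2 alone lay within the nanotube range. The summed FPKM of the 4 enzymes was 0.601, 0.450 and 0.305 times that of Timp1 in nanotube libraries 1, 2 and 3, against 0.376, 0.269 and 0.320 times in smooth libraries 1, 2 and 3.

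**Figure D4:**
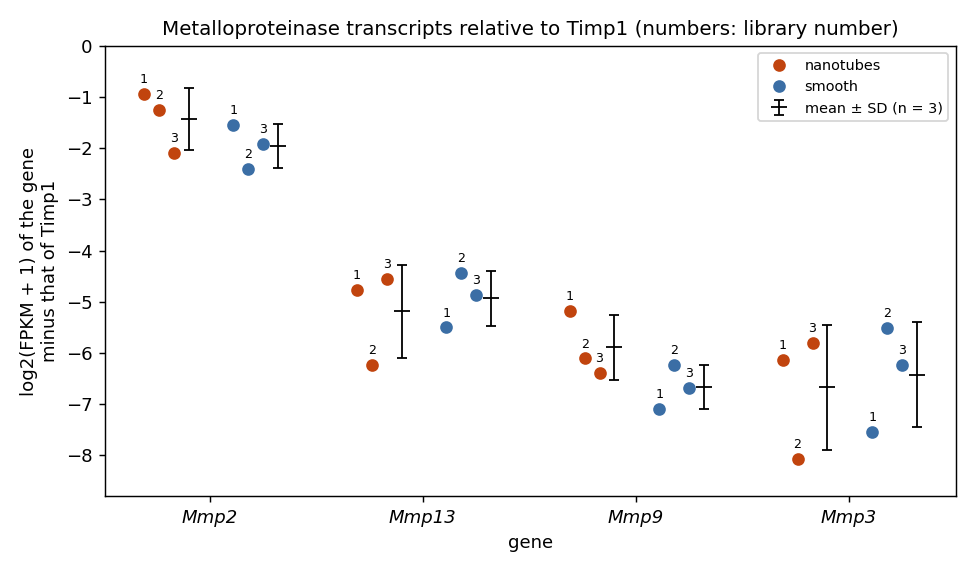
Difference of log2(FPKM + 1) between each metalloproteinase and Timp1 in each library, nanotubes left of smooth, with mean and SD beside the points and the library number above each point. All values are below 0, since Timp1 exceeded each enzyme, and the libraries of the surfaces overlap for each enzyme.

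The genes most alike in course to Mmp3, the most variable of the 5, and to Timp1 were looked up among all tested genes. For Mmp3 this was ENSRNOG00000027502, with Pearson's r of 0.997 over the 6 libraries. It had 8.91, 5.95 and 10.2 FPKM in nanotube libraries 1, 2 and 3, against 7.85, 12.3 and 10.2 FPKM in smooth libraries 1, 2 and 3. For Timp1 it was ENSRNOG00000030747, with an r of 0.994, which had 1.31, 3.44 and 2.14 FPKM in nanotube libraries 1, 2 and 3, against 4.66, 3.15 and 3.61 FPKM in smooth libraries 1, 2 and 3. With 6 libraries and 11864 genes searched, an r of this size says only which gene came first. Neither identifier has a symbol in the table or the reference.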

How the data were processed

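The authors deposited 1 table of FPKM values for 19458 rat Ensembl genes, with 1 column per library. Per the submitters' processing notes, the tools were HISAT2 2.1.0, HTSeq and Bowtie 1.0.1, in roles that are not stated, with the mouse builds mm10 and GRCm38. No rat build, annotation, strand setting or filter is named in the sources used here, so reads of overlapping or antisense genes cannot be told apart. Library preparation started from 3 µg of total RNA, per the labels' protocols.

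Symbols of the 5 genes come from the list that chose them, since 0 identifiers of the table occur in the reference of 47357 RefSeq genes, where all 5 symbols were found. The recovered gene-model lengths (740 bases for Timp1, 1708 for Mmp3, 2602 for Mmp13, 3071 for Mmp2, 3150 for Mmp9) lay within the RefSeq gene spans. These spans, 6070 to 28214 bases, are far longer, so this cannot show that a symbol is right. Of the 5 promoters, 3 were in the reference table used. The members and lists were chosen with earlier results of these data known. The lists of related proteases, inhibitors, inducers and cell type markers need symbols and were not tested. The text names the 5 members and the gene most alike to Mmp3 (largest SD) and to Timp1.

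Whole reads were recovered from the FPKM values, from the most frequent ratios between columns and the smallest whole-number reads and length per gene. All 116748 values came out whole within a relative tolerance of 1e-12. These reads give counting error (relative error as 1 over the square root of the reads), which covers counting only. FPKM values averaging 1 or more (11865 genes) entered limma 3.58.1 (R 4.3.3) as log2(FPKM + 1), as deposited and not rescaled, with trend in eBayes. Tests were two-sided and adjusted by Benjamini-Hochberg over all these genes at 0.05. The fit was also run on simulated counts with known changes, with the same spread setting for every gene and no likeness between particular libraries. The real libraries differ from that setting, so this run checks the code and not the error rate in these data. Alternatives were pseudocounts of 0.1 and 5, no filter or one at 5 FPKM, median-of-ratios and upper-quartile scaling, voom on the recovered reads, libraries left out and a replicate block.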

Additional observations from a re-analysis of the deposited data

How the results depend on the processing

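None of the 5 genes passed an adjusted p of 0.05 in any of the 16 alternatives to the limma fit (lowest adjusted p 0.174, for Mmp9 without nanotube library 3). Mmp3, Mmp13 and Timp1 kept a lower and Mmp9 a higher mean on nanotubes in all 16, and Mmp2 kept its sign in 14. Leaving out 1 library gave log2 fold changes of -0.19 to 0.47 for Mmp2, -1.12 to -0.11 for Mmp3, -0.97 to -0.29 for Mmp13, 0.16 to 0.63 for Mmp9 and -0.56 to -0.27 for Timp1. Relative to Timp1 the difference between surfaces was then 0.29 to 0.87 for Mmp2, 0.42 to 1.03 for Mmp9, -0.80 to 0.45 for Mmp3 and -0.57 to 0.27 for Mmp13. Signs turned without nanotube library 2 for Mmp2, and relative to Timp1 for Mmp3 and Mmp13, and without smooth library 2 for Mmp2, and relative to Timp1 for Mmp3, and the cause was not tested. Over all genes 0 passed in each alternative except without nanotube library 3, so that leaving out 1 library gave 0 to 1. Genes at an unadjusted p under 0.05 were 724 (202 higher, 522 lower). The higher ones were 76 to 514 with 1 library left out, 378 (543 lower) with median-of-ratios scaling, 405 (516 lower) with upper-quartile scaling and 334 without the filter. Voom on the recovered reads gave 724 genes and 0 called. Deviations from the surface means correlated at 0.32, -0.21 and 0.06 for numbers 1, 2 and 3, and were not all over 0.1, which left the libraries unpaired. With the replicate block, 801 genes were under an unadjusted p of 0.05 over all 6 libraries (201 higher) and 1355 over the 4 numbered ones (325 higher), with 0 called in both. edgeR and DESeq2, which need counts, were not run.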
